A study of Mus musculus with 10 samples.

Results

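The hypoxia-inducible factors (HIFs) and the genes that control them were followed in the lungs of mouse pups with increased pulmonary blood flow (IncPBF). They comprise 10 genes of the 54532 in the deposited expression table, picked out by gene symbol: the alpha subunits Hif1a, Epas1 and Hif3a, the beta subunits Arnt and Arnt2, the prolyl hydroxylases Egln1, Egln2 and Egln3, the ubiquitin ligase component Vhl and the asparaginyl hydroxylase Hif1an. The set was chosen by a rule that had the difference between IncPBF and sham lungs in this same table in view, so the group differences of the 10 genes are given here as descriptions, without a test. All lungs came from wild-type C57/BL6 pups of either sex and were sampled at P14. In the IncPBF group (5 lungs) a fistula had been made at P7 by passing a needle through the abdominal aorta into the inferior vena cava, which sends arterial blood back to the right heart and the lung; the sham group (5 lungs) had the same laparotomy without the puncture. Whole lung was sequenced in bulk at this 1 age, so the values average over all lung cells, and fewer cells of a type cannot be told apart from less RNA per cell.

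HIF is a dimer of an alpha and a beta subunit that binds DNA and activates genes for glycolysis, vessel growth and red cell formation. The alpha subunits are made continuously and, while oxygen is ample, are hydroxylated on prolines by the Egln enzymes (also called PHDs), bound by the Vhl protein and degraded. Hif1an, or FIH, hydroxylates an asparagine and blocks the binding of coactivators. When oxygen falls the hydroxylases slow down and the alpha subunits accumulate, a step that takes place in the protein and is not seen in RNA. Hif1a encodes the broadly expressed HIF-1 alpha subunit. Epas1 encodes HIF-2 alpha, which is abundant in the vascular endothelium and in alveolar type 2 cells of the lung. Hif3a encodes a subunit whose shorter isoforms can restrain the other HIFs, and both Hif3a and Egln3 are themselves known target genes of HIF.

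On the scale of log2(FPKM + 0.1) the members that differed most between the groups were Hif3a, Egln3 and Arnt2; with a pseudocount of 1, Arnt2 was at 0.61 and came after Epas1, which was at -0.75 to -0.64 in every setting. For these 3 genes the 250 bases before the transcription start are shown to put their regulatory sequence beside the values. The sequences are from RefSeq on GRCm38.p6, written 5′ to 3′ on the strand of the gene, which is the minus strand for all of them. Capitals mark the cores of the hypoxia response element, ACGTG or GCGTG, read on either strand. The windows are at chr7:17062428-17062677 for Hif3a, chr12:54203875-54204124 for Egln3 and chr7:84410039-84410288 for Arnt2. The Arnt2 window is placed by a RefSeq start inside the gene as it was quantified. Its part up to position 84410176 therefore lies within that gene.
Hif3a: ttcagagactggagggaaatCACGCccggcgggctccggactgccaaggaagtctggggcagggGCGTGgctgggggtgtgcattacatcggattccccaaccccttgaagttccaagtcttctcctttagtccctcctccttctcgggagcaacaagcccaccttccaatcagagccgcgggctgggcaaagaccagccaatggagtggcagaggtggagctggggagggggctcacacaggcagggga
Egln3: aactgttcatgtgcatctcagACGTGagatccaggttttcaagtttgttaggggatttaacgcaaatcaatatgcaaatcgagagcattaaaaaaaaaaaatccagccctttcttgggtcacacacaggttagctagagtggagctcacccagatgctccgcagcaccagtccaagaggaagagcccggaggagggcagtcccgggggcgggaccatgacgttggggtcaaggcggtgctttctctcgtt
Arnt2: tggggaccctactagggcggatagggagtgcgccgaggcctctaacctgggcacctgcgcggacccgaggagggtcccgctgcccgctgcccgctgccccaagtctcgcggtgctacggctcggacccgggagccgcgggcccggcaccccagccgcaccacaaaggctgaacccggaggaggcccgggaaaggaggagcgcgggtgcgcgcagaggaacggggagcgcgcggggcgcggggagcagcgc
The Hif3a window held 2 GCGTG cores, with their first bases 186 and 230 bases before the start, the more distant of them on the other strand. The Egln3 window held 1 ACGTG core, 229 bases before the start, and the Arnt2 window held none. Windows were found for 9 of the 10 members, 10 windows in all since Egln2 had 2, and 7 of the 10 held either core. Among all 32851 windows of this length, 16.6% held ACGTG, 28.2% held GCGTG and 38.6% held either. A match to 5 letters describes the sequence and is no evidence of a binding site, and a window without a match says nothing about the factor.

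The values are FPKM, fragments per kilobase of gene relative to a library size, as the authors scaled them. Each lung had 16103423 to 20318525 fragments on genes, and 1 fragment on a gene of 1 kb was worth 0.0482 to 0.0580 FPKM. The library size that this implies was above the fragments on genes in every IncPBF lung and in sham lungs 3 and 4. In sham lungs 1, 2 and 5 it was below them. How the authors set it is not known, and small differences between the groups can depend on it. Differences are of log2(FPKM + 0.1), IncPBF minus sham, with the standard error (SE) from limma. With a false discovery rate of 0.05 over the 15388 genes tested, 32.3% of genes differed, 16.1% higher and 16.2% lower in the IncPBF group. These were 2480 and 2490 genes, or 2921 and 1960 when each lung was scaled to an equal total. Sex-linked genes differed with the groups: Xist was at 0.0064 to 0.077 FPKM in the sham lungs and 0.0144 FPKM in IncPBF lung 1, but at 52.4 to 66.5 FPKM in the other IncPBF lungs, and the Y-linked Ddx3y was at 21.8 to 24.6 FPKM in the sham lungs and 18.6 FPKM in IncPBF lung 1, but at 0.0093 FPKM or less in the others. Sex and surgery therefore cannot be told apart in IncPBF lungs 2 to 5. For the members, the pathway lists and the cell type markers, values, counts or directions are given below also in further fits. These are with log2 Xist FPKM as a covariate, and for IncPBF lung 1 alone against the 5 sham lungs. Since Xist was high only in the other IncPBF lungs, the covariate fit takes the group difference mainly from IncPBF lung 1. The fits are therefore not independent of each other. With Xist as a covariate 741 of the 15388 genes were called, and 3173 were at an unadjusted p under 0.05. Of the 4970 genes called in the fit of all lungs, 4962 kept their direction with Xist and 4960 in IncPBF lung 1 alone. A kept direction of called genes therefore sets no list apart.

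Among the alpha subunits Hif3a stood farthest apart, about 11-fold lower in the IncPBF group by the means. Hif3a (minus strand of chromosome 7, 17031507 to 17062427) was at 8.07, 6.05, 7.34, 5.02 and 8.92 FPKM in sham lungs 1 to 5. In IncPBF lungs 1 to 5 it was at 0.516, 0.453, 0.419, 0.596 and 1.15 FPKM. The groups did not overlap, and IncPBF lung 5 was the highest of its group. The means were 7.08 ± 1.56 FPKM (SD, n = 5) in the sham group and 0.627 ± 0.299 FPKM (SD, n = 5) in the IncPBF group, 11.3-fold apart, with a log2 difference of -3.36 (SE 0.237). Its fall was the eighth largest of all 15388 genes tested. Sex-linked genes were among the larger falls, down to -6.32, so this rank is also shaped by the sex of the lungs. These levels rested on 644 to 1042 fragments per sham lung and 52 to 160 per IncPBF lung. The difference was as large with Xist as a covariate, at -3.48, and in IncPBF lung 1 alone, at -3.51. With a pseudocount of 1 in place of 0.1 it was -2.31.

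Epas1 was by far the most abundant member in both groups and was lower in the IncPBF group. Epas1 (plus strand of chromosome 17, 86753907 to 86833410) was at 673, 676, 594, 531 and 717 FPKM in the sham lungs, in the order of their numbers. The IncPBF lungs had 394, 401, 397, 380 and 397 FPKM. The groups did not overlap, and the spread was narrower in the IncPBF lungs, with a coefficient of variation of 2.0% against 11.7% in the sham lungs. The means were 638 ± 74.5 FPKM (SD, n = 5) and 394 ± 7.97 FPKM (SD, n = 5), a log2 difference of -0.69 (SE 0.085). With Xist as a covariate it was -0.67, and in IncPBF lung 1 alone it was -0.69. The length of Epas1 in the table, 5309 bases, was shorter than the 5590 bases of its merged exons in GENCODE M21, while the other 9 members had the same length and position in both.

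Hif1a was slightly higher in the IncPBF group, in the direction opposite to Epas1 and Hif3a. Hif1a (plus strand of chromosome 12, 73901375 to 73947530) was at 19.1, 19.6, 18.6, 20.04 and 19.0 FPKM in the sham lungs. In the IncPBF lungs it was at 23.2, 24.2, 20.99, 22.3 and 24.0 FPKM, and all of them lay above the sham lungs. The means were 19.2 ± 0.565 and 22.9 ± 1.34 FPKM (SD, n = 5 each), a log2 difference of 0.25 (SE 0.051), which is 1.19-fold. The difference was 0.27 both with Xist as a covariate and in IncPBF lung 1 alone.

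**Figure D1:**
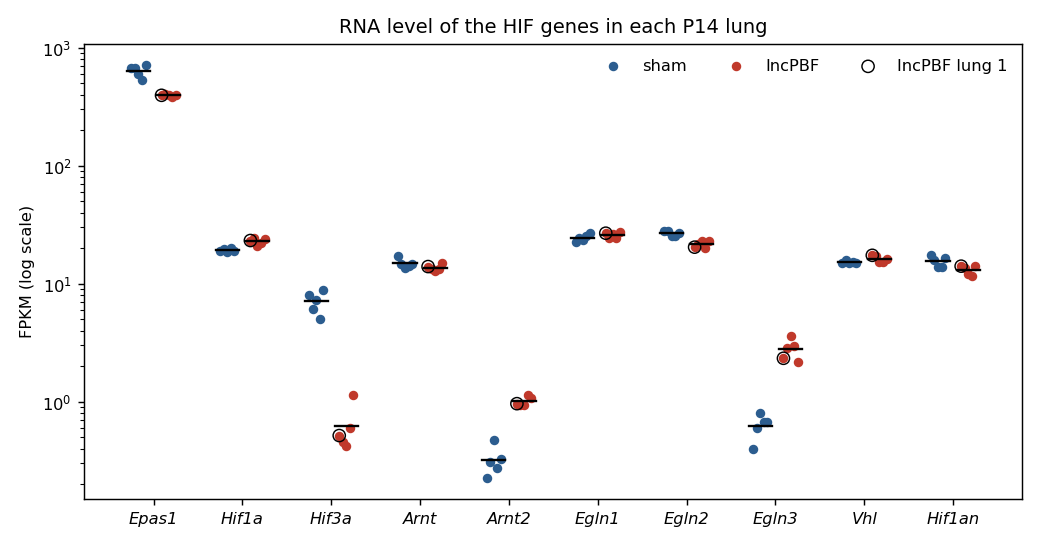
RNA level of the 10 HIF genes in FPKM (log axis) in each sham lung (blue) and IncPBF lung (red), with the group mean as a black line and IncPBF lung 1 circled. Hif3a lies at 5.02 to 8.92 FPKM in the sham lungs, against 0.419 to 1.15 FPKM with IncPBF, and Egln3 and Arnt2 lie higher in every IncPBF lung than in any sham lung.

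Cell types of the lung, among them the endothelial and alveolar type 2 cells known to express Epas1, were followed by their marker genes. The counts of markers called stand beside 16.1% of all genes tested that were higher and 16.2% that were lower in the IncPBF group. Of 6 endothelial markers, 3 were lower, namely Tek by -0.47, Cdh5 by -0.44 and Pecam1 by -0.37 in log2 (adjusted p = 0.0022, 0.0070 and 0.0041), and none was higher past the threshold. By sign alone 4 of the 6 were lower and 2 higher, the highest at 0.09. The summed endothelial level was 910 to 964 FPKM with IncPBF, against 941 to 1219 FPKM in the sham lungs, which overlap. The 6 markers averaged 0.22 lower in log2 in the IncPBF group, against 0.69 for Epas1. Of 6 alveolar type 2 markers 4 were lower, with a median log2 difference of -0.55 and a sum of 11073 to 13692 FPKM against 13535 to 16731 FPKM. All 6 alveolar type 1 markers were lower, with a median of -0.52 and a sum of 925 to 985 FPKM against 1183 to 1564 FPKM. Markers of smooth muscle and myofibroblasts went the other way, with 4 of 6 higher, a median of 0.94 and a sum of 313 to 608 FPKM against 112 to 246 FPKM. Of 6 leukocyte markers Lyz2 was lower and the others did not pass. Of 6 red cell markers 4 were lower, with a median of -1.50 and overlapping groups, and of 5 tested cardiac muscle markers limma called 0, with 0 at an unadjusted p under 0.05, and limma-voom called 0, with 1 at an unadjusted p under 0.05. The mean of the cardiac markers was 1.88 and 2.11 above the sham mean in log2 in IncPBF lungs 2 and 4, and -0.47 to -0.11 from it in the other IncPBF lungs. With Xist as a covariate limma called 0 of the endothelial, alveolar, smooth muscle, leukocyte and cardiac markers and 1 of the red cell markers, beside 741 of all 15388 genes tested. At an unadjusted p under 0.05 were 3 of 6 endothelial, 3 of 6 alveolar type 2, 4 of 6 alveolar type 1 and 1 of 6 smooth muscle markers. Of the leukocyte, red cell and cardiac markers these were 1 of 6, 6 of 6 and 0 of 5, beside 3173 of all genes tested. The mean of the red cell markers was -2.35 from the sham mean in log2 in IncPBF lung 1. Over the IncPBF lungs it ran from -2.55 in lung 4 to -0.12 in lung 2. The markers called in the fit of all lungs kept their direction with Xist and in IncPBF lung 1 alone, as nearly all genes called over the whole set did. No marker of the first 4 lists was at 0 in every lung. The part of these cell types in the differences of Epas1 and of the other members was not tested.

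**Figure D2:**
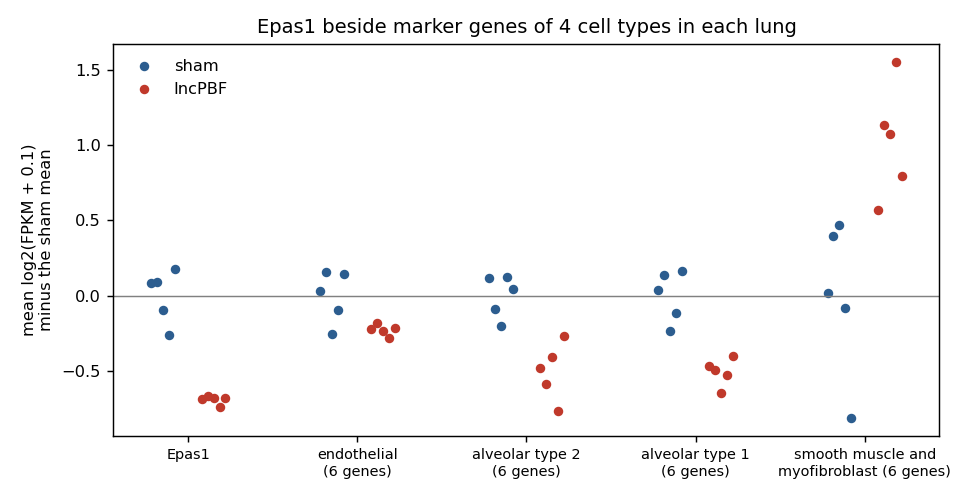
Level of Epas1 and mean level of 6 marker genes each of 4 cell types in every lung, as log2(FPKM + 0.1) minus the mean of the sham lungs (blue points sham, red points IncPBF). Epas1 lies 0.66 to 0.74 below the sham mean in the IncPBF lungs, the endothelial markers 0.18 to 0.28 below it and overlapping the sham lungs, and the smooth muscle and myofibroblast markers 0.57 to 1.55 above it.

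Of the beta subunits, with which the alpha subunits pair on DNA, the abundant Arnt differed little and the scarce Arnt2 was about 3-fold higher in the IncPBF group. Arnt (plus strand of chromosome 3, 95434388 to 95497240) was at 13.6 to 17.1 FPKM in the sham lungs, against 12.7 to 14.9 FPKM with IncPBF, and the ranges overlapped. Its log2 difference was -0.12 (SE 0.068), with means of 14.8 ± 1.32 and 13.6 ± 0.868 FPKM (SD, n = 5 each). Arnt2 (minus strand of chromosome 7, 84246278 to 84410176), better known from neurons and the hypothalamus, was at 0.225, 0.311, 0.470, 0.272 and 0.329 FPKM in the sham lungs. In the IncPBF lungs it was at 0.962, 0.930, 0.936, 1.15 and 1.06 FPKM, without overlap. The means were 0.321 ± 0.092 and 1.01 ± 0.094 FPKM (SD, n = 5 each), which is 3.14-fold, on 31 to 68 and 133 to 170 fragments per lung. The log2 difference was 1.42 (SE 0.199), with 1.34 under the Xist covariate and 1.36 in IncPBF lung 1 alone. At these low levels it depended on the pseudocount, with 0.61 at a pseudocount of 1 and 1.66 at 0.01. The sham mean of Arnt2 lay below the minimum of 0.5 FPKM, so that it passed this filter, which all 10 members passed, through its level in the IncPBF lungs. An antisense gene inside Arnt2, Gm30873, was at 0.678 FPKM in the IncPBF lungs and 0.186 FPKM in the sham lungs. The strand setting of the counting was not given, so reads of Arnt2 and Gm30873 may not have been told apart.

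The 3 prolyl hydroxylases, which mark the alpha subunits for Vhl, went in different directions. Egln3 (minus strand of chromosome 12, 54178981 to 54203860), a PHD that HIF induces, was at 0.398, 0.598, 0.798, 0.668 and 0.669 FPKM in the sham lungs. In the IncPBF lungs it was at 2.33, 2.83, 3.58, 2.96 and 2.15 FPKM, and the lowest IncPBF lung was above the highest sham lung. The means were 0.626 ± 0.147 and 2.77 ± 0.563 FPKM (SD, n = 5 each), 4.42-fold apart, with a log2 difference of 1.99 (SE 0.181) on 19 to 40 and 119 to 176 fragments per lung. It was 1.74 with Xist as a covariate, 1.77 in IncPBF lung 1 alone and 1.21 with a pseudocount of 1. Egln2 (minus strand of chromosome 7, 27158658 to 27166802) was lower in the IncPBF group. It was at 28.1, 27.8, 25.3, 25.1 and 27.0 FPKM in the sham lungs and at 20.4, 21.8, 22.9, 20.04 and 22.9 FPKM in the IncPBF lungs, without overlap. Its log2 difference was -0.30 (SE 0.057), with -0.37 under the Xist covariate and -0.38 in IncPBF lung 1 alone. Egln1 (minus strand of chromosome 8, 124908587 to 124949324), the main oxygen sensor of most cells, was at 22.5 to 26.7 FPKM in the sham lungs, against 24.3 to 27.4 FPKM with IncPBF. These ranges overlapped, and its log2 difference was 0.09 (SE 0.059).

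Vhl, which carries hydroxylated alpha subunits to degradation, and Hif1an both had overlapping groups. Vhl (plus strand of chromosome 6, 113623959 to 113631633) was at 15.002, 15.9, 15.03, 15.1 and 14.9 FPKM in the sham lungs and 17.4, 17.1, 15.1, 15.3 and 16.1 FPKM in the IncPBF lungs. IncPBF lungs 1, 2 and 5 were above all sham lungs, and the log2 difference was 0.09 (SE 0.052), or 0.19 with Xist as a covariate and in IncPBF lung 1 alone. Hif1an (plus strand of chromosome 19, 44562850 to 44576274) was at 13.8 to 17.5 FPKM in the sham lungs, against 11.7 to 14.2 FPKM with IncPBF, with a log2 difference of -0.23 (SE 0.084). With Xist as a covariate this was -0.11, and in IncPBF lung 1 alone it was -0.13.

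Counted over the set, the groups did not overlap for 6 of the 10 members, with Hif1a, Arnt2 and Egln3 higher and Epas1, Hif3a and Egln2 lower in the IncPBF group. Of all genes tested, 23.2% did not overlap. Since the members were picked with this comparison in view, nothing follows from their share. No member changed the sign of its difference with Xist as a covariate or in IncPBF lung 1 alone, fits that both rest mainly on this lung. The SE of every member was larger in these fits than in the fit of all lungs. With Xist it was 0.155 for Epas1, 0.421 for Hif3a, 0.355 for Arnt2 and 0.310 for Egln3, and IncPBF lung 1 is a single lung.

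**Figure D3:**
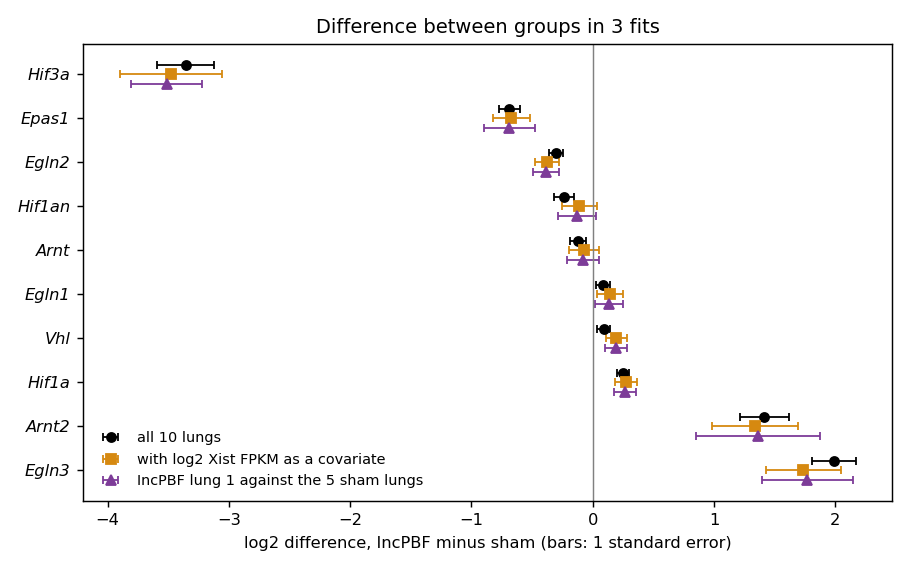
Log2 difference in FPKM of the 10 HIF genes, IncPBF minus sham, in the fit of all 10 lungs (black circles), with log2 Xist FPKM as a covariate (orange squares) and for IncPBF lung 1 alone against the 5 sham lungs (purple triangles), with bars of 1 standard error. Hif3a lies at -3.36, -3.48 and -3.51 and Egln3 at 1.99, 1.74 and 1.77 in these fits.

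FPKM are per length, so the levels of different members can be set side by side, but only roughly. A single length stands for each gene, while the members have 1 to 13 transcripts in GENCODE M21. Gapdh, a gene of the glycolysis list below, was at only 0.321 to 3.68 FPKM in the sham lungs and 0.476 to 0.877 FPKM in the IncPBF lungs. How well levels compare between genes was not tested, and the order here and the shares below carry this limit. In the sham lungs the order was Epas1, Egln2, Egln1, Hif1a, Hif1an, Vhl, Arnt, Hif3a, Egln3 and Arnt2. Neighbours whose ranges overlapped were Egln2 and Egln1, Hif1an and Vhl, Vhl and Arnt, and Egln3 and Arnt2. In the IncPBF lungs the order was Epas1, Egln1, Hif1a, Egln2, Vhl, Arnt, Hif1an, Egln3, Arnt2 and Hif3a. Overlapping neighbours there were Hif1a and Egln2, Arnt and Hif1an, and Arnt2 and Hif3a. Hif3a thus went from the eighth to the last place, and from the 56.6th to the 4.15th percentile of all genes tested in the same group. Egln3 went from the 5.06th to the 32.0th percentile, while Epas1 was at the 99.8th percentile in the sham lungs and the 99.7th in the IncPBF lungs.

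The balance among members of the same role was computed within each lung, which removes the scaling of the lung. Epas1 had 33.2 ± 4.28 FPKM per FPKM of Hif1a in the sham lungs (SD, n = 5, range 26.5 to 37.8). In the IncPBF lungs the ratio was 17.2 ± 0.994 (SD, n = 5, range 16.5 to 18.9), without overlap. Epas1 still made up 94.4 ± 0.320% of the FPKM of the 3 alpha genes in the IncPBF lungs, against 96.0 ± 0.349% in the sham lungs (SD, n = 5 each). The share of Hif1a was 5.49 ± 0.281% against 2.93 ± 0.407%, and that of Hif3a 0.150 ± 0.071% against 1.06 ± 0.163%. The FPKM of the alpha genes summed to 417 ± 8.54 in the IncPBF lungs and 664 ± 75.5 in the sham lungs. The summed FPKM of the 3 Egln genes were close, at 50.3 ± 2.37 and 51.7 ± 1.93 FPKM with overlapping ranges. Within this sum Egln3 held 5.52 ± 1.10% in the IncPBF lungs against 1.22 ± 0.303% in the sham lungs, and Egln2 held 43.0% against 51.6%. Arnt2 held 6.91 ± 0.623% of the FPKM of both beta genes against 2.16 ± 0.746%. These ratios are made of the values that chose the members and are descriptions as well.

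**Figure D4:**
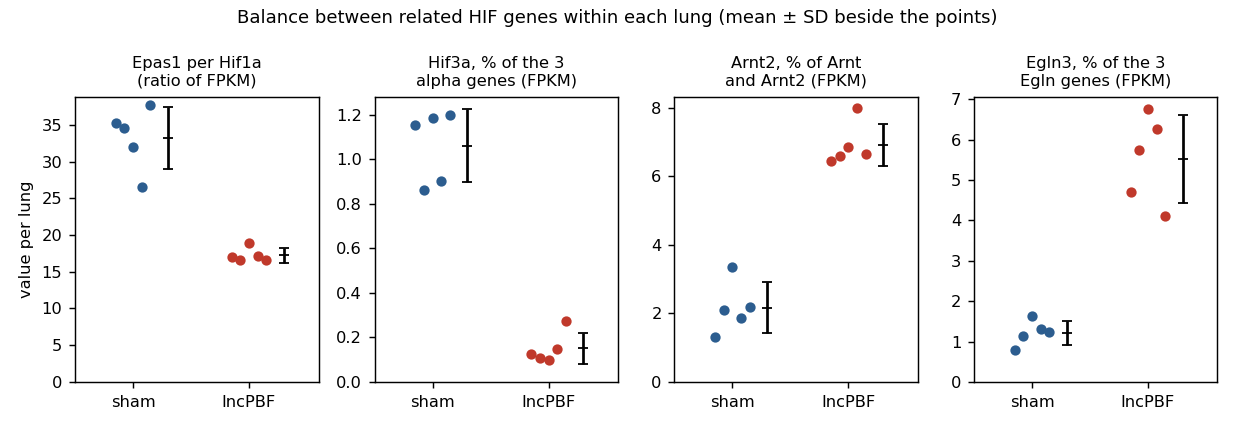
Ratio of Epas1 to Hif1a FPKM and shares of Hif3a, Arnt2 and Egln3 among the genes of the same role, in each sham lung (blue) and IncPBF lung (red), with the mean and SD beside the points. The Epas1 to Hif1a ratio spans 26.5 to 37.8 in the sham lungs and 16.5 to 18.9 in the IncPBF lungs.

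Genes that HIF is known to activate, which are no members, were tested one by one. They were listed by known role, 57 genes of which 54 could be tested, in separate lists for glycolysis and for vessels, matrix, mitochondria and feedback. Of the 54 genes, 9 were higher and 16 lower in the IncPBF group, 46.3% against the 32.3% of all genes tested. Their median log2 difference was -0.12, against 0.01 over all genes tested, whose quartiles were -0.19 and 0.22.

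In the glycolysis list 6 of 21 genes rose, 3 fell and 12 did not pass the test, with a median of -0.04. The lactate exporter Slc16a3 rose from 1.17 ± 0.140 to 1.87 ± 0.225 FPKM (log2 difference 0.63, adjusted p = 0.0022). Lactate dehydrogenase Ldha rose from 68.9 ± 5.09 to 88.2 ± 1.90 FPKM (0.36, adjusted p = 0.0009). Aldoc and Pgk1, an aldolase and the phosphoglycerate kinase, had differences of 0.52 and 0.26 (adjusted p = 0.0322 and 0.0019). Among the genes that fell were Pfkfb3, which makes the activator of phosphofructokinase (-0.39, adjusted p = 0.0094), and Pdk1, a pyruvate dehydrogenase kinase (-0.22, adjusted p = 0.0394). The aldolase gene Aldoa fell by 0.17 on the log2 scale (adjusted p = 0.0296). The glucose transporter Slc2a1 was at -0.21 (adjusted p = 0.161) and the carbonic anhydrase Car9, a classic marker of hypoxia, at 0.519 ± 0.159 FPKM in the IncPBF lungs and 0.524 ± 0.108 FPKM in the sham lungs (adjusted p = 0.926). Pgk1 lies on chromosome X. All 9 called genes kept their direction with Xist as a covariate and in IncPBF lung 1 alone, as nearly all genes called over the whole set did. With Xist as a covariate limma called 0 of the 21 genes, beside 741 of all 15388 genes tested. At an unadjusted p under 0.05 were 4 of the 21, beside 3173 of all genes tested.

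In the second list falls outnumbered rises, with 3 of 33 genes higher, 13 lower and 17 not past the test, and a median of -0.23. Angptl4, a regulator of lipoprotein lipase, fell from 44.2 ± 6.82 to 21.4 ± 2.30 FPKM (log2 difference -1.03, adjusted p = 8.2e-05). Bnip3, a receptor for the removal of mitochondria, fell from 17.6 ± 2.77 to 9.43 ± 0.787 FPKM (-0.88, adjusted p = 0.00013). Stc2 and Flt1, a secreted glycoprotein and a VEGF receptor, were at -0.85 and -0.46 (adjusted p = 0.0033 and 0.0013). Vegfa, the main growth factor of endothelium, fell from 172 ± 5.98 to 139 ± 7.39 FPKM (-0.31, adjusted p = 0.0017). Ndrg1 and the histone demethylase Kdm3a fell by 0.41 and 0.28 on the log2 scale (adjusted p = 0.0053 and 0.0052). The genes that rose were the collagen crosslinking enzyme Loxl2, from 27.6 ± 5.94 to 60.2 ± 5.44 FPKM (1.15, adjusted p = 0.0002), Ankrd37 (0.51, adjusted p = 0.0214) and Angpt2, an antagonist of the Tek receptor (0.31, adjusted p = 0.0368). The vasoactive peptides Adm and Edn1 were at -0.35 and -0.28 (adjusted p = 0.0574 and 0.220). Epo, the hormone of red cell formation, had no fragment in any lung. With Xist as a covariate 4 of the 33 genes passed, namely Angptl4, Bnip3, Ndrg1 and Angpt2, beside 741 of all 15388 genes tested. At an unadjusted p under 0.05 were 13 of the 33, beside 3173 of all genes tested. All 16 called genes kept their direction with Xist and in IncPBF lung 1 alone, as nearly all genes called over the whole set did.

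**Figure D5:**
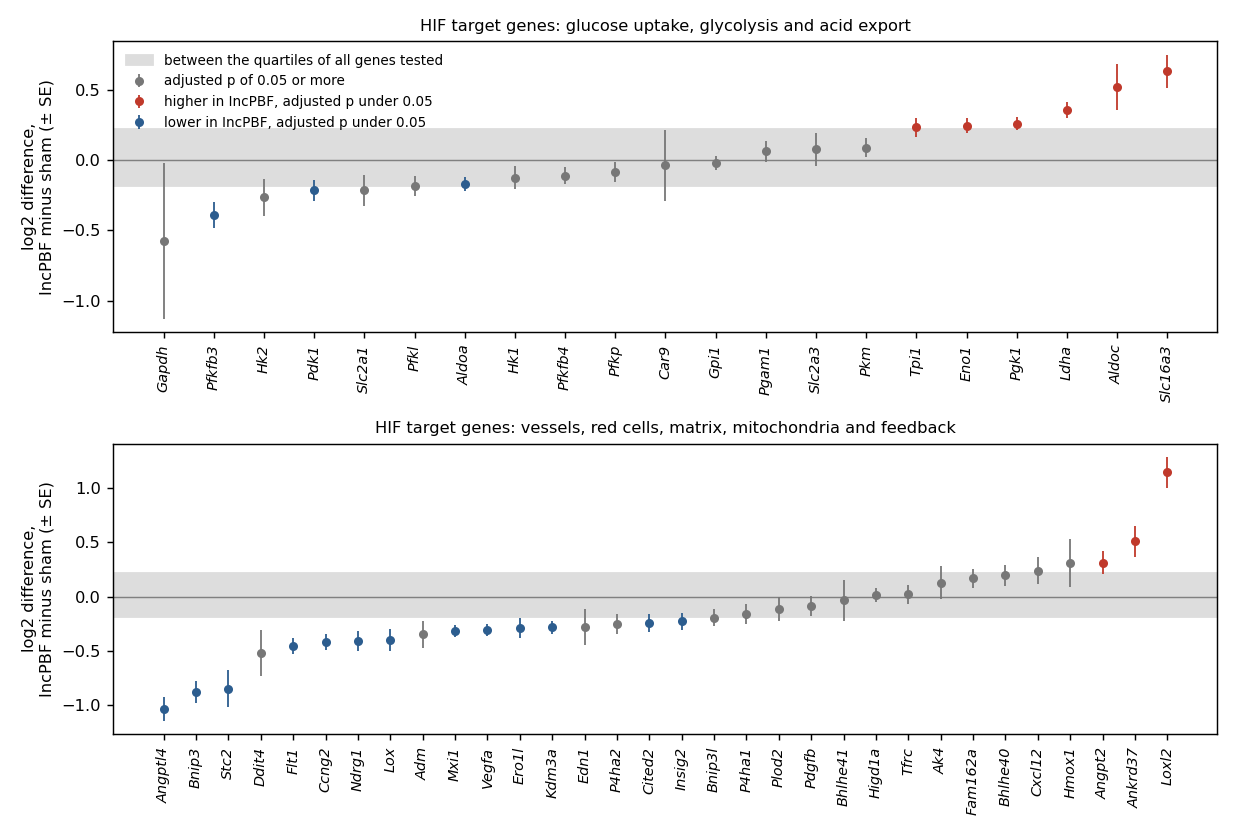
Log2 difference in FPKM, IncPBF minus sham, with its standard error, for tested genes of the lists of HIF target genes, all but 1 that did not pass, higher (red), lower (blue) or not past an adjusted p of 0.05 (grey), ordered by size. The grey band runs between the quartiles of all genes tested, from -0.19 to 0.22; the lower panel has 13 blue and 3 red genes, with Loxl2 at 1.15 and Angptl4 at -1.03 at its ends.

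Among 24 tested genes of other regulators and partners of HIF, 3 rose and 3 fell (25%, beside 32.3% of all genes), with a median of 0.03. The elongins Elob and Eloc, which sit with Vhl in its ubiquitin ligase, rose by 0.37 and 0.25 in log2 (adjusted p = 0.0076 and 0.0459), and the ubiquitin ligase gene Siah1b, on chromosome X, whose protein family degrades Egln proteins, rose by 0.32 (adjusted p = 0.0383). The coactivator Ep300 was at -0.39, the deacetylase Sirt1 at -0.23 and Os9, which binds Egln proteins, at -0.19 (adjusted p = 0.0159, 0.0069 and 0.0378). Of these 6 genes, 3 passed without IncPBF lung 1, without IncPBF lung 2, without sham lung 1 or without sham lung 2. Of 7 tested genes of the wider bHLH-PAS family, to which the HIF subunits belong, 3 fell and none rose (42.9%, beside 32.3% of all genes). These were Ncoa3, Clock and Ncoa2, at -0.41, -0.41 and -0.26 (adjusted p = 0.0053, 0.0019 and 0.04998). In both lists limma called 0 genes with Xist as a covariate, beside 741 of all 15388 genes tested. At an unadjusted p under 0.05 were 3 of the regulators and 2 of the bHLH-PAS genes, beside 3173 of all genes tested. The 9 called genes kept their direction with Xist and in IncPBF lung 1 alone, as nearly all genes called over the whole set did.

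The genes around Hif3a did not share the size of its difference. Of the 3 nearest tested genes on each side, 2 of 6 passed the test, beside 32.3% of all genes tested. Ppp5c, 3583 bases away, was at -0.15 (adjusted p = 0.0410), while Ccdc8 and Pnmal2, 33991 and 82679 bases away, were at 0.12 and 0.06 (adjusted p = 0.253 and 0.817). On the other side the nearest tested gene was Mill2, 1777539 bases away, at -0.39 (adjusted p = 0.0026), followed by Pglyrp1 at 0.51 and Ccdc61 at 0.11 (adjusted p = 0.0634 and 0.214). Only 1 of the 6 passed without IncPBF lungs 1, 2, 4 or 5 or sham lungs 2 or 5, each left out in turn, and 3 passed without sham lung 4. Among genes overlapping a member, 4833404L02Rik inside Hif3a was at 0.058 FPKM in the IncPBF lungs and 0.059 FPKM in the sham lungs, Gm15283 across Hif1a at 0.266 and 0.170 FPKM, Cyp2t4 at the end of Egln2 at 0.300 and 0.377 FPKM, and Gm42672 inside Arnt at 0.945 and 1.19 FPKM. Gm49321 and Gm25790 had no fragment in any lung.

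The genes whose levels followed Hif3a most closely over the 10 lungs were Gm4956, Serpina3n, Fkbp5, Map3k6 and Inmt. The measure was the root mean square difference of the centred log2 values, which was 0.40, 0.46, 0.46, 0.46 and 0.47, against 1.72 for Hif3a around its own mean. These genes were picked for this likeness, and their difference between the groups follows from it. Serpina3n, a serine protease inhibitor, was at 39.0 ± 7.05 FPKM in the sham lungs and 2.92 ± 0.506 FPKM in the IncPBF lungs (SD, n = 5 each). Fkbp5, a co-chaperone of steroid receptors, was at 11.1 ± 2.56 and 1.67 ± 0.189 FPKM. Inmt, a methyltransferase of small amines, was at 502 ± 122 and 64.8 ± 23.2 FPKM, Map3k6 at 17.7 ± 4.502 and 2.76 ± 0.477 FPKM, and Gm4956 at 21.6 ± 7.35 and 2.06 ± 0.487 FPKM.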

How the data were processed

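Total RNA of 10 whole lungs (5 IncPBF, 5 sham) was sequenced by the authors from NEBNext libraries, and the authors deposited FPKM per gene with gene length. The submitters' processing notes name Bowtie 0.12.2 and the builds hg38, GRCm38 and mm10 without roles; the counting software and strand setting were not given in the sources used here. Of 54409 genes shared with GENCODE M21 on GRCm38, 98.3% had the same position. Groups came from the labels; the IncPBF columns carry another abbreviation than the titles and were assigned as a group. FPKM times length gave whole fragments, within 0.01, for 100% of values. Fragments carry no molecular identifiers, so limits from them cover counting error only. All lungs differed by more than sampling noise (smallest chi-square per gene of a pair 6.40).

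Of the table, 15388 genes averaged 0.5 FPKM or more. Their log2(FPKM + 0.1) entered limma 3.58.1 (lmFit, eBayes with trend) in R 4.3.3, IncPBF against sham, with Benjamini-Hochberg adjustment over all of them; the steps were tested on simulated data. The labels give no litter, so the p-values set each group difference against the spread between these lungs within their groups only. Sex is part of that difference, since sex-linked genes differed with the groups. Python 3.11.15, pandas 2.3.3 and matplotlib 3.10.9 did the rest. Members, lists and tests were chosen with earlier results of these data known. Outside the rule that follows, Gapdh is named for its low level. Named are all members, the 4 largest rises and falls of each target list past the threshold and 14 target genes fixed by role (1 of them is counted in its list but not reported here), the 3 largest rises and falls of the other lists, the 6 neighbours of Hif3a, the 5 genes most like it and genes overlapping a member. Alternatives were the pseudocount, filter, scaling, limma-voom, Xist as a covariate, a replicate block, eBayes without trend and each lung left out; IncPBF lung 1 against the sham lungs was added after the data were seen.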

Additional observations from a re-analysis of the deposited data

Results flagged for a closer look

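Single lungs that stood apart from the other 4 of their group, by the gap to the nearest lung as a share of the whole range, were found in 6 of 114 groups of 5 lungs, where chance flags about 1 in 20. Hif3a was at 1.15 FPKM in IncPBF lung 5, on 160 fragments, against 0.419 to 0.596 FPKM in the other IncPBF lungs. Vhl was at 15.9 FPKM in sham lung 2 and 14.9 to 15.1 FPKM in the other sham lungs. Aldoc was at 0.720 FPKM in IncPBF lung 2 and 0.924 to 0.995 FPKM in the others. Loxl2 was at 50.7 FPKM in IncPBF lung 1 and 61.6 to 64.2 FPKM in the others. Sirt1 was at 7.44 FPKM in IncPBF lung 2 and 6.74 to 6.91 FPKM in the others. Gm4956 was at 34.4 FPKM in sham lung 1 and 16.7 to 21.2 FPKM in the other sham lungs.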

How the results depend on the processing

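Taking sex-linked expression into account lowered the count of calls over all genes and in every pathway list. With log2 Xist FPKM as a covariate, 741 genes of all tested were called (3173 at an unadjusted p under 0.05), 0 glycolysis targets, 4 of the vessel and other targets, 0 other regulators, 0 bHLH-PAS genes and 0 neighbours of Hif3a. With IncPBF lung 1 alone against the sham lungs, an alternative chosen after seeing the data that assumes this lung to vary like the sham lungs, these were 154 (2548 unadjusted), 0, 0, 0, 0 and 0. Fewer lungs bear on the difference in both, and the cause was not tested. Without a filter on low values 3 regulators and 1 neighbour were called, and 1 neighbour with an equal total per lung, with limma-voom or with eBayes without trend. Leaving out each lung in turn gave 3869 to 5234 genes, 6 to 10 glycolysis targets, 11 to 17 other targets, 3 to 6 regulators, 2 to 4 bHLH-PAS genes and 1 to 3 neighbours. Equal lung numbers did not pair the lungs: same-number correlations were -0.067 to 0.085, and 2 of 5 IncPBF lungs correlated best with their own number. The replicate block gave 4872 genes, 7 glycolysis targets, 16 other targets, 4 regulators, 4 bHLH-PAS genes and 2 neighbours. Members kept their sign in all 219 values; 7 values of 4 members moved by more than the spread, Hif3a to -2.31, Arnt2 to 0.61 and Egln3 to 1.21 with a pseudocount of 1, Arnt2 to 1.66 with 0.01 and to 1.67 with limma-voom, and Vhl to 0.19 in both fits on sex-linked genes. Of the other named genes, 28 lost their call in 144 values and 4 gained one in 13. Signs turned in 4 genes that were not called: Car9, from -0.14 to 0.13 over the lungs left out, with 0.13 without IncPBF lung 2 and 0.05 without sham lung 5; Edn1, 0.038 with Xist and 0.020 in IncPBF lung 1; Pnmal2, -0.016 with Xist and from -0.090 (without sham lung 1) to 0.12 over the lungs left out; Gm42672, 0.35 with Xist and 0.48 in IncPBF lung 1. Depth limits Hif3a in the IncPBF lungs and Arnt2 and Egln3 in the sham lungs most, with as few as 52, 31 and 19 fragments per lung.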
